A study of Mus musculus with 4 samples.

Results

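The cytosolic ribosomal protein genes encode the protein part of the ribosome, and on these arrays they were represented by 40 autosomal genes through 91 probe sets, out of 18193 genes and 45037 probe sets in all. They were chosen by name alone: a probe set counted where its only gene symbol was that of a small-subunit protein (Rps followed by a number, or Rpsa), a large-subunit protein (Rpl followed by a number) or a stalk protein (Rplp0, Rplp1 or Rplp2). The symbol rule first gave 94 probe sets, of which 3, for the 2 X-linked genes Rpl39 and Rps4x, were left out. The 40 genes were 19 of the small and 21 of the large subunit, and 19 of them had 1 probe set while 21 had between 2 and 6. Another 110 probe sets list a ribosomal protein gene together with pseudogenes or other genes and were kept apart, and for that reason Rplp1, Rpl3 and Rpl5 are among the genes with no value of their own.

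Cilia-deleted and Control samples were compared at postnatal day 7, both on the C57BL/6 background, with 2 arrays of biological replicates each. Cilia-deleted samples came from Col2aCre;Ift88fl/fl mice, in which Cre recombinase driven by the type II collagen promoter removes Ift88, a gene of intraflagellar transport that is needed to build the primary cilium, from cells of the cartilage lineage. Control samples are labelled wild-type. In both, the proliferative zone of the growth plate, where chondrocytes divide in columns, was cut with an 18 gauge needle from 40 µm sections of proximal tibia and distal femur, and 50 ng of total RNA was amplified in a procedure of 2 cycles primed from the poly(A) end.

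A ribosome is made of a small subunit, which holds the mRNA and reads its codons, and a large subunit, which joins the amino acids and passes the new chain through an exit tunnel. Each ribosomal protein is normally made in the same number of copies as its partners, and surplus proteins are degraded. The mRNAs of vertebrate ribosomal proteins are short and abundant, and they start with a run of pyrimidines, the 5′ terminal oligopyrimidine (TOP) tract, through which mTOR signalling controls their translation. Growing cartilage makes large amounts of matrix protein, and several ribosomal protein mutations in mice disturb the skeleton.

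The start regions of 8 members are shown because they stand at the ends of the range of differences described here: Rps26, Rps6, Rpl27 and Rpl37a with the lowest and Rpl12, Rpl27a, Rpl41 and Rps25 with the highest differences among members that have 1 annotated start in the RefSeq table of GRCm38.p6. Each line runs 5′ to 3′ on the gene's strand from 80 bases before the annotated start through the first 20 transcribed bases. Capitals mark CTTTC, a core of TOP tracts, and CCGGAAG or its reverse complement CTTCCGG, a binding motif of ETS-family transcription factors.
Rps26, chr10:128626487-128626586, minus strand: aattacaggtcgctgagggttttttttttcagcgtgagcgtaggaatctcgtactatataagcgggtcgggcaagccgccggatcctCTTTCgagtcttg
Rps6, chr4:86857348-86857447, minus strand: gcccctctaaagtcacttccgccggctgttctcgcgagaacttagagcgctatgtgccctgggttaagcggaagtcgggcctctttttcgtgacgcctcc
Rpl27, chr11:101442165-101442264, plus strand: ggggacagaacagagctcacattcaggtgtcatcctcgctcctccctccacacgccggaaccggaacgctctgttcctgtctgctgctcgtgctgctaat
Rpl37a, chr1:72711180-72711279, plus strand: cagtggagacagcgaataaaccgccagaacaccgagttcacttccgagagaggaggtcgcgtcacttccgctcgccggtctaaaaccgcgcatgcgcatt
Rpl12, chr2:32961632-32961731, plus strand: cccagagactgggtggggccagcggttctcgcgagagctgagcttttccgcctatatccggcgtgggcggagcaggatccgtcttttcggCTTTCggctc
Rpl27a, chr7:109519115-109519214, plus strand: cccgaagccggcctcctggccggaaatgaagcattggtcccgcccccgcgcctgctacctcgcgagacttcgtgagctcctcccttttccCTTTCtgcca
Rpl41, chr10:128549149-128549248, minus strand: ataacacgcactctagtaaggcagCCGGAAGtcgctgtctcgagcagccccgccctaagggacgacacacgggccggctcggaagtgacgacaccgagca
Rps25, chr9:44407634-44407733, plus strand: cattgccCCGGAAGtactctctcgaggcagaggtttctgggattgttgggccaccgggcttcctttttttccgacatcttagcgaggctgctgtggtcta
In these windows CTTTC is marked in Rps26, Rpl12 and Rpl27a and CCGGAAG in Rpl41 and Rps25. Rps26 is the only marked window of the low end, and each window of the high end is marked. In the longer stretch of 300 bases CCGGAAG was also found for Rps26, Rps6 and Rpl27a. Promoters were in the table for 35 of the 40 genes. CTTTC lay on the gene's strand within 25 bases of an annotated start in 11 of the 35 (31.4%), against 7.9% of the 27025 genes in the table. CCGGAAG lay on either strand of the 300 bases from 250 before to 50 after a start in 17 of the 35 (48.6%), against 9.9% of all genes. The TATA sequence TATAAA, searched on the gene's strand from 50 to 11 bases before a start, was in 0 of the 35 and in 2.9% of all genes. As a description with no test, the median log2 difference between the genotypes was -0.09 in those with CTTTC and -0.11 in those without it, and likewise -0.09 with and -0.11 without CCGGAAG. A match to these letters is a description of the sequence and does not show that a factor binds there.

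All values are log2 with the median of the 4 arrays subtracted from each probe set, so they give differences between arrays and no expression levels. How bright a probe set was can be placed only in coarse classes, from the number steps left in the values. Of the 91 ribosomal protein probe sets 74 (81.3%) fell in the brightest class, read as a lowest original log2 value of 8 or more. A dimmer probe set can take the step of a brighter class by chance, so a class is only a rough guide to level. How many dimmer probe sets stand in the brightest class was not estimated. At least 1 probe set of that class was found for 16 of 16 chondrocyte markers, for 7 of 7 measured markers of dividing cells and for 0 of 12 skeletal muscle markers. Several facts of the arrays may bear on what follows. On the leading principal component (52.1% of the variance) the Cilia-deleted arrays scored 8.5 and 19, against -30.8 for Control 1 and 3.4 for Control 2. Xist, the RNA of the inactive X chromosome, was at -3.79 and -3.61 in Cilia-deleted arrays, against 3.58 and 3.74 in Control arrays, so sex and genotype cannot be told apart. The 7 measured markers of dividing cells had a median of -0.08 and -0.19 in Cilia-deleted arrays, against 0.52 in Control 1 and 0.05 in Control 2, and the difference between the 3′ and 5′ Actb control probe sets was -0.10 and -0.14 in Cilia-deleted arrays, against 0.10 and -0.05 in Control arrays, while the groups overlapped for Gapdh, Tfrc and Pcx. The 5 osteoclast markers had a median of -0.30 and 0.21 in Cilia-deleted arrays, against -0.35 in Control 1 and 1.56 in Control 2. The 12 skeletal muscle markers had one of -0.08 and -0.06 in Cilia-deleted arrays, against -0.01 and 0.43 in Control arrays. Of these 12 markers, 11 had a Cilia-deleted minus Control difference below 0 (51.8% of all genes did) and 1 above. Both Cilia-deleted arrays lay below both Control arrays for 5 (18.6% of all genes did so). Their median difference was -0.26 with all arrays. Without Control 2 it was -0.05 with 6 below 0 (48.9% of all genes were). The largest difference was that of Tnni2, at -0.86 and -1.14 in Cilia-deleted arrays, against 1.05 and 0.88 in Control arrays. The 5 resting or articular chondrocyte markers had a median of -0.13 and -0.10 in Cilia-deleted arrays, against 0.01 and 0.88 in Control arrays. Of these 5 markers, 3 had a difference below 0 (51.8% of all genes did) and 2 above. Among them Prg4 stood at 7.52 in Control 2, against 0.01 in Control 1 and -0.19 and -0.01 in Cilia-deleted arrays. Sfrp5 was at -0.89 and -0.45 in Cilia-deleted arrays, against 0.45 and 0.88 in Control arrays. Ucma went the other way, at 0.56 and 0.35 in Cilia-deleted arrays, against -0.93 and -0.35 in Control arrays. The 6 fibroblast or perichondrium markers had a median of 0.54 and -0.16 in Cilia-deleted arrays, against -0.21 and 0.03 in Control arrays. The part of all these array facts in the results was not tested. Ift88 itself, by 1 probe set, was at 0.22 and -0.07 in Cilia-deleted arrays, against 0.07 and -0.08 in Control arrays, and since its place with respect to the floxed exons was not looked up, it does not check the deletion.

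No ribosomal protein gene passed the threshold in Cilia-deleted against Control samples, although most had somewhat lower values. Of the 40 genes, 0 passed an adjusted p of 0.05 in limma over all genes, where 0.011% of all genes did, and the lowest adjusted p among them was 0.43. At an unadjusted p under 0.05 there were 3 lower members (3.68% of all genes were) and 1 higher member (2.29% of all genes were). Fewer cells of a type and less RNA per cell cannot be told apart in such samples.

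The difference between the groups was small, and it rested largely on Control 1. The median of the 40 genes was -0.08 and -0.02 in Cilia-deleted arrays, against 0.17 in Control 1 and -0.01 in Control 2. Control 1 therefore stood above the other 3 arrays, and Control 2 lay close to the Cilia-deleted arrays. The median difference was -0.106 with all arrays, beside -0.007 over all genes. Of the 40 genes 30 lay below 0 (75%), against 51.8% of all genes. Without Control 1 the median difference was -0.024, beside -0.026 over all genes, and 22 of 40 lay below 0, against 55.8% of all genes. Without Control 2 the median difference was -0.252 and 31 of 40 lay below 0 (against 48.9% of all genes), and without Cilia-deleted 2 it was -0.171. Both Cilia-deleted arrays lay below both Control arrays for 19 of the 40 genes, where 18.6% of all genes did so, and above both for 5 genes, where 14.7% of all genes did so.

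**Figure D1:**
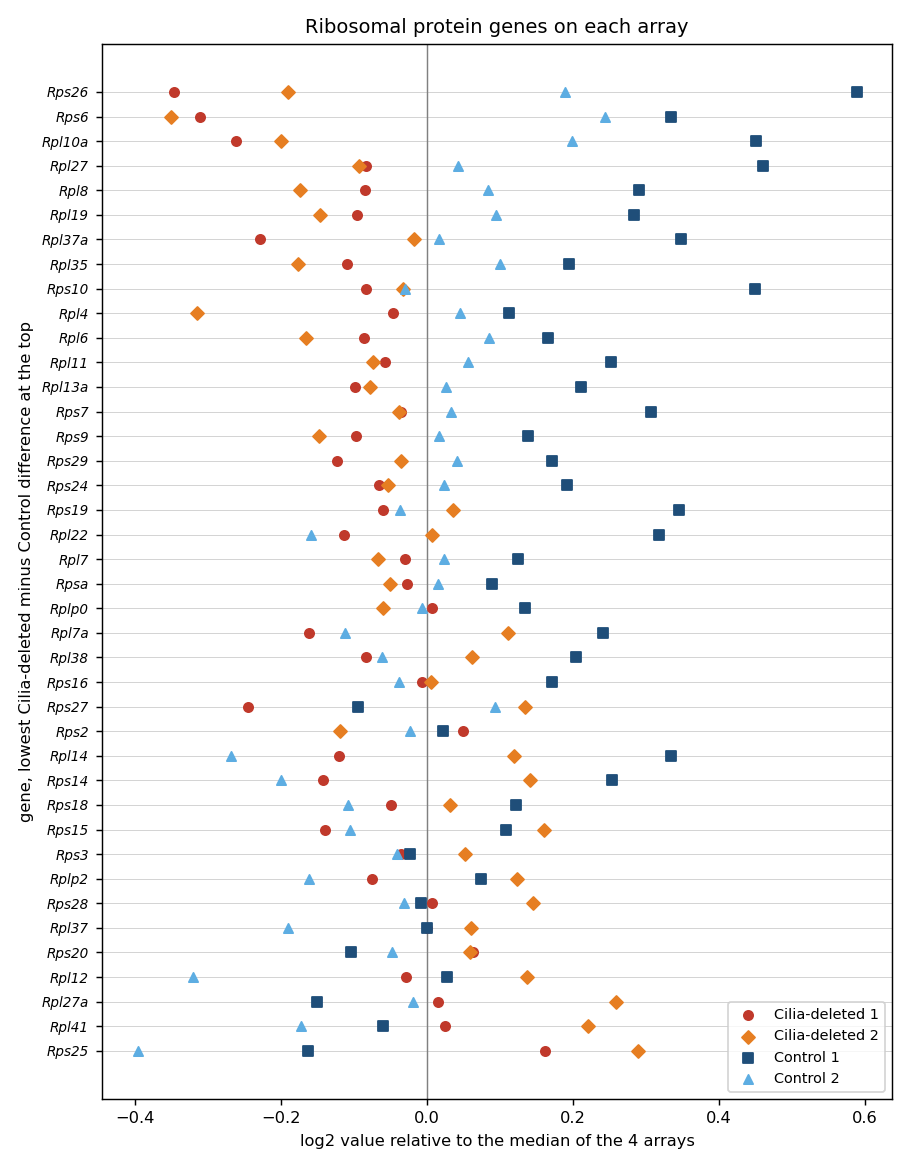
Values of the 40 ribosomal protein genes on each array (log2, each probe set's median over the arrays subtracted), with 1 row per gene from the lowest to the highest Cilia-deleted minus Control difference. Circles and diamonds are the Cilia-deleted arrays, squares and triangles the Control arrays, and Control 1 is the highest of the 4 for 28 of the 40 genes.

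Among small-subunit genes the lowest differences were those of Rps26 and Rps6. Rps26, which lies by the exit of the mRNA channel and is mutated in some cases of Diamond-Blackfan anaemia in humans (chromosome 10, 128624529 to 128626506, GRCm38.p6), was at -0.35 and -0.19 in Cilia-deleted arrays, against 0.59 and 0.19 in Control arrays. Both Cilia-deleted arrays were below both Control arrays, with Control 1 farthest out. Its log2 difference was -0.66 (SE 0.175, n = 2 per group, limma adjusted p = 0.663), or 1.58-fold lower, and it was -0.46 without Control 1 and -0.86 without Control 2.

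Rps6, whose protein is the substrate of the S6 kinases downstream of mTOR (chromosome 4, 86854099 to 86857367), was at -0.31 and -0.35 in Cilia-deleted arrays, against 0.33 and 0.24 in Control arrays. The groups did not overlap, and the arrays of each group lay close together. The difference was -0.62 (SE 0.125, limma adjusted p = 0.430) and stayed between -0.66 and -0.57 as each array was left out, which was the least dependence on a single array among the 4 members with an unadjusted p under 0.05. The value is the mean of unlike probe sets. The first, of the brightest class, was at -0.40 and -0.65 in Cilia-deleted arrays, against 0.62 and 0.40 in Control arrays, a difference of -1.04 (SE 0.167, limma adjusted p over all probe sets = 0.355), and it had the lowest difference of the 91 probe sets. The second, of the dimmest class, had a difference of -0.20. Another 9 probe sets are annotated to both Rps6 and the pseudogene Rps6-ps4 and are assigned to neither here. Their differences ran from -0.26 to 0.10 with a median of -0.15.

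Rps10, which sits near the mRNA entrance, was at -0.08 and -0.03 in Cilia-deleted arrays, against 0.45 and -0.03 in Control arrays. The difference of -0.27 came from Control 1, since it was -0.03 without that array. Rps7, which can bind the p53 regulator Mdm2, was at -0.04 in both Cilia-deleted arrays, against 0.31 and 0.03 in Control arrays (difference -0.21, and -0.07 without Control 1). Rps9 (-0.20), Rps29 (-0.19) and Rps24 (-0.17) had smaller differences of the same sign with groups apart, and without Control 1 the difference was -0.12 for Rps29 and -0.08 for Rps24. The median difference of the 19 small-subunit genes was -0.067, with 14 below 0 (51.8% of all genes were), and 0 passed. It was -0.012 with 10 below 0 without Control 1 (55.8% of all genes were), and -0.173 without Control 2.

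Large-subunit genes had a median difference of -0.132, with 16 of 21 below 0 (51.8% of all genes were), and 0 passed. It was -0.071 with 12 below 0 without Control 1 (55.8% of all genes were), and -0.293 without Control 2. Rpl10a, a protein of the L1 stalk that helps the spent tRNA leave (chromosome 17, 28328471 to 28331033), was at -0.26 and -0.20 in Cilia-deleted arrays, against 0.45 and 0.20 in Control arrays. The groups were apart. The difference was -0.56 (SE 0.143, limma adjusted p = 0.635), with -0.43 without Control 1 and -0.68 without Control 2.

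Rpl27 (chromosome 11, 101442245 to 101445596) was at -0.08 and -0.09 in Cilia-deleted arrays, against 0.46 and 0.04 in Control arrays, so that Control 2 lay nearer to the Cilia-deleted arrays than to Control 1. Its difference was -0.34 (SE 0.172), and -0.13 without Control 1. Rpl8, a protein close to the peptide-joining centre, was at -0.08 and -0.17 in Cilia-deleted arrays, against 0.29 and 0.08 in Control arrays (difference -0.32, SE 0.138).

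Rpl19, which reaches across to the small subunit, had a difference of -0.31 and Rpl37a one of -0.31 (-0.14 without Control 1). Rpl35, at the mouth of the exit tunnel, was at -0.11 and -0.18 in Cilia-deleted arrays, against 0.20 and 0.10 in Control arrays, with differences from -0.34 to -0.24 as each array was left out. Rpl4, which lines the tunnel, had a difference of -0.26 (-0.13 without Cilia-deleted 2), the last of the 10 lowest, and Rpl6 followed at -0.25.

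A minority of members had higher values in Cilia-deleted samples. Rps25, a small-subunit protein that many viral internal ribosome entry sites need (chromosome 9, 44407714 to 44410406), was at 0.16 and 0.29 in Cilia-deleted arrays, against -0.16 and -0.40 in Control arrays. The groups were apart, and Control 2 was the lowest array. Its difference was 0.51 (SE 0.144, limma adjusted p = 0.707), or 1.42-fold higher, with 0.39 to 0.62 as each array was left out. It rests on 1 probe set.

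Rpl41, the smallest ribosomal protein, was at 0.03 and 0.22 in Cilia-deleted arrays, against -0.06 and -0.17 in Control arrays (difference 0.24, SE 0.138), and Rpl27a was at 0.01 and 0.26 in Cilia-deleted arrays, against -0.15 and -0.02 in Control arrays (difference 0.22). Cilia-deleted 2 was the highest array for both, and without it the difference was 0.14 for Rpl41 and 0.10 for Rpl27a. The groups were also apart for Rps20 (0.14) and Rps28 (0.10, and 0.03 without Cilia-deleted 2), and they overlapped for Rpl12 (0.20), Rpl37 (0.13), Rplp2 (0.07), Rps3 (0.04) and Rps15 (0.01). None of these 10 genes passed.

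The other members picked for their roles are described next. The stalk proteins recruit elongation factors to the large subunit: Rplp0 was at 0.01 and -0.06 in Cilia-deleted arrays, against 0.13 and -0.01 in Control arrays, and Rplp2 was at -0.07 and 0.12 in Cilia-deleted arrays, against 0.07 and -0.16 in Control arrays. The groups overlapped for both, and their differences of -0.09 (95% interval -0.41 to 0.23) and 0.07 (-0.31 to 0.44) do not show that the genotypes were alike. Rpl11, which with the 5S RNA can bind Mdm2, had a difference of -0.22 (SE 0.134), and -0.12 without Control 1. Rpsa, also known as the laminin receptor, was at -0.09.

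Rps19, the gene most often mutated in Diamond-Blackfan anaemia, was at -0.06 and 0.04 in Cilia-deleted arrays, against 0.35 and -0.04 in Control arrays. Only Control 1 stood out. The difference was -0.17, and 0.02 without Control 1. Rpl38, which in mice is needed for normal patterning of the vertebrae, was at -0.08 and 0.06 in Cilia-deleted arrays, against 0.20 and -0.06 in Control arrays (difference -0.08, and 0.05 without Control 1). Rps14, lost in a form of human myelodysplastic syndrome, was at -0.14 and 0.14 in Cilia-deleted arrays, against 0.25 and -0.20 in Control arrays, so each genotype held a high and a low array.

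By median difference the 2 Control arrays differed from each other by more than the genotypes did, while the 2 Cilia-deleted arrays differed by less. These are unlike measures, because the genotype difference uses means of 2 arrays and a difference between single arrays carries more noise. Over all genes the SD of the difference was 0.339 between the Control arrays, 0.239 between the Cilia-deleted arrays and 0.246 between the genotypes. Control 1 was above Control 2 in 37 of the 40 genes (92.5%), against 48.4% of all genes, and the median difference between these 2 arrays was 0.193. The largest of these differences were those of Rpl14 (0.60), Rps10 (0.48), Rpl22 (0.48), Rps14 (0.45) and Rpl27 (0.42). The 3 exceptions were Rps27 (-0.19), Rpl27a (-0.13) and Rps20 (-0.06), followed by Rps3 and Rps28 at 0.02 each. Control 1 was the highest of the 4 arrays in 28 of 40 genes (70%), where 32.3% of all genes had it highest.

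Between the Cilia-deleted arrays the members leaned the other way and less far. Cilia-deleted 1 was above Cilia-deleted 2 in 15 of 40 genes (37.5%), against 47.7% of all genes, with a median difference of -0.061. The lowest were Rps27 (-0.38), Rps15 (-0.30), Rps14 (-0.28), Rpl7a (-0.27) and Rpl27a (-0.24), and the highest Rpl4 (0.27), Rps2 (0.17), Rpl8 (0.09), Rpl6 (0.08) and Rpl35 (0.07). Rps14 and Rpl14 varied within both genotypes while both had a Cilia-deleted minus Control difference of -0.03: Rpl14 was at -0.12 and 0.12 in Cilia-deleted arrays, against 0.33 and -0.27 in Control arrays. These within-genotype differences compare single arrays and have no test.

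**Figure D2:**
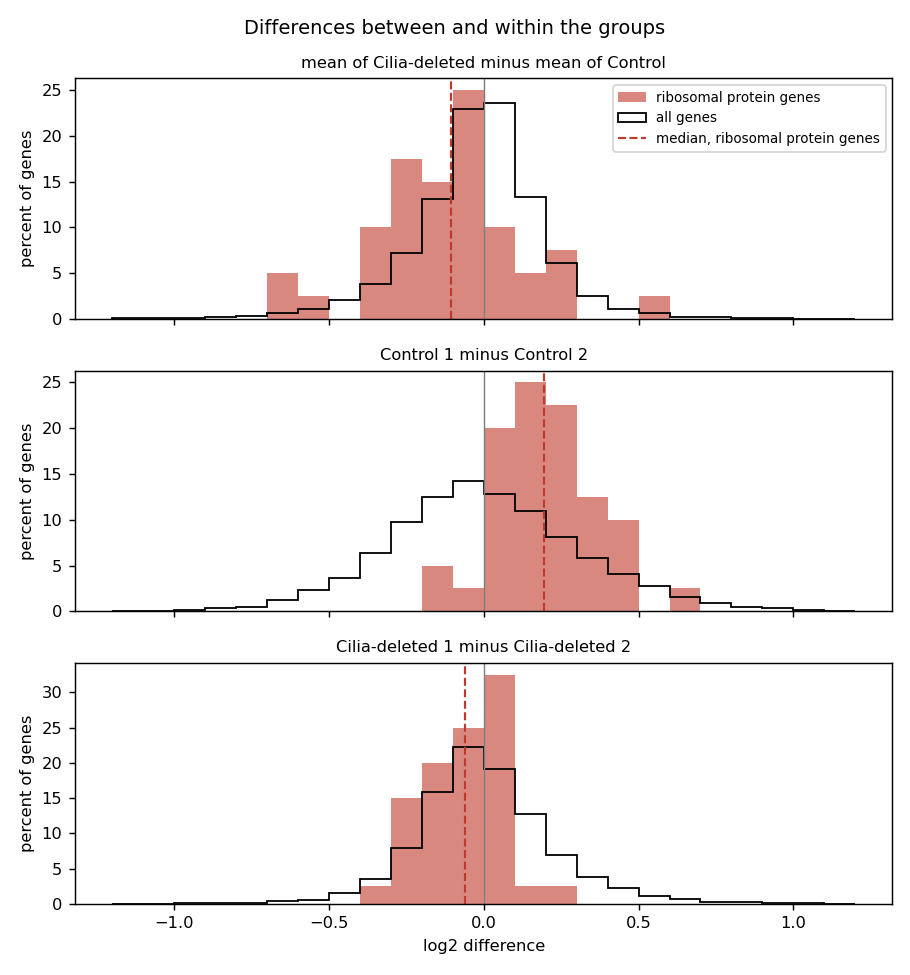
Share of genes (percent) by log2 difference, for the 40 ribosomal protein genes (filled) and all 18193 genes (outline), with the genes beyond the axis not drawn. The dashed line is the median of the ribosomal protein genes, -0.106 for Cilia-deleted minus Control, 0.193 for Control 1 minus Control 2 and -0.061 for Cilia-deleted 1 minus Cilia-deleted 2.

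Tested one by one, 0 of the 91 ribosomal protein probe sets passed in limma over all probe sets, where 0.0444% did, and 11 had an unadjusted p under 0.05, of which 8 were lower (3.18% of all probe sets were) and 3 higher (3.0% of all probe sets were). The groups were apart for 40 lower and 11 higher probe sets (17.4% and 16.2% of all probe sets were), and 68 of 91 lay below 0, against 49.5% of all. Without Control 1, 56 lay below 0 (53.8% of all probe sets did), and without Control 2, 71 did (47.2% of all). Control 1 was above Control 2 in 79 of 91 (47.9% of all probe sets were) and highest of the 4 arrays in 64 (30.4% of all), and Cilia-deleted 1 was above Cilia-deleted 2 in 33 (46.2% of all). The 74 probe sets of the brightest class had a median difference of -0.17, beside -0.01 over all probe sets of that class. Of the 74, 59 lay below 0 (52% of all probe sets of that class did). Without Control 1 their median was -0.08 with 48 below 0. Over all probe sets of that class it was then -0.0004, with 5619 of 11229 below 0. The 16 in the dimmer classes had a median of -0.01 with 8 below 0. By suffix, the 24 probe sets ending in _a_at, which cover transcripts of the same gene, had a median of -0.24, beside -0.05 over all of that suffix. The 37 ending in _x_at, which can share probe sequences with other transcripts, had one of -0.17, beside -0.02 over all of that suffix. Without Control 1 the members' medians were -0.10 for _a_at and -0.09 for _x_at, beside -0.05 over all probe sets of either suffix. The 27 with the plain suffix _at had a median of 0.01, as did all probe sets of that suffix (0.01), with values from -1.04 (Rps6) to 0.53 (Rpl41). The rule leaves out the 110 probe sets that list a ribosomal protein gene with other genes. Their median was -0.145 with 86 below 0 (49.5% of all probe sets were). It was -0.052 with 71 below 0 without Control 1 (53.8% of all probe sets were), and -0.225 without Control 2. Their array medians were -0.08 and -0.02 in Cilia-deleted arrays, against 0.14 in Control 1 and 0.00 in Control 2.

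Probe sets of the same gene often disagreed. Of the 21 genes with several probe sets 8 had probe sets of both signs, and the median distance between the lowest and the highest was 0.29. After Rps6 (0.84), it was widest for Rpl35 (0.70), Rpl41 (0.62), Rps20 (0.59), Rps3 (0.54) and Rpl22 (0.46). For Rpl35, 5 probe sets of the brightest class lay between -0.45 and -0.32 and 1 dimmer probe set at 0.25. All but 1 of those 5 end in _x_at and can share probe sequences, so they are not independent measures. The gene's mean was -0.29, and it was -0.10 without _x_at and _s_at probe sets. For Rpl41 the spread was within the brightest class: its probe sets were at -0.09, 0.11, 0.41 and 0.53. For Rps20, 2 probe sets ending in _x_at were at -0.10 and -0.07, and the others at 0.23 and 0.49. By contrast, the 3 probe sets of Rps28 lay between 0.07 and 0.11 and the 2 of Rps7 at -0.23 and -0.19.

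**Figure D3:**
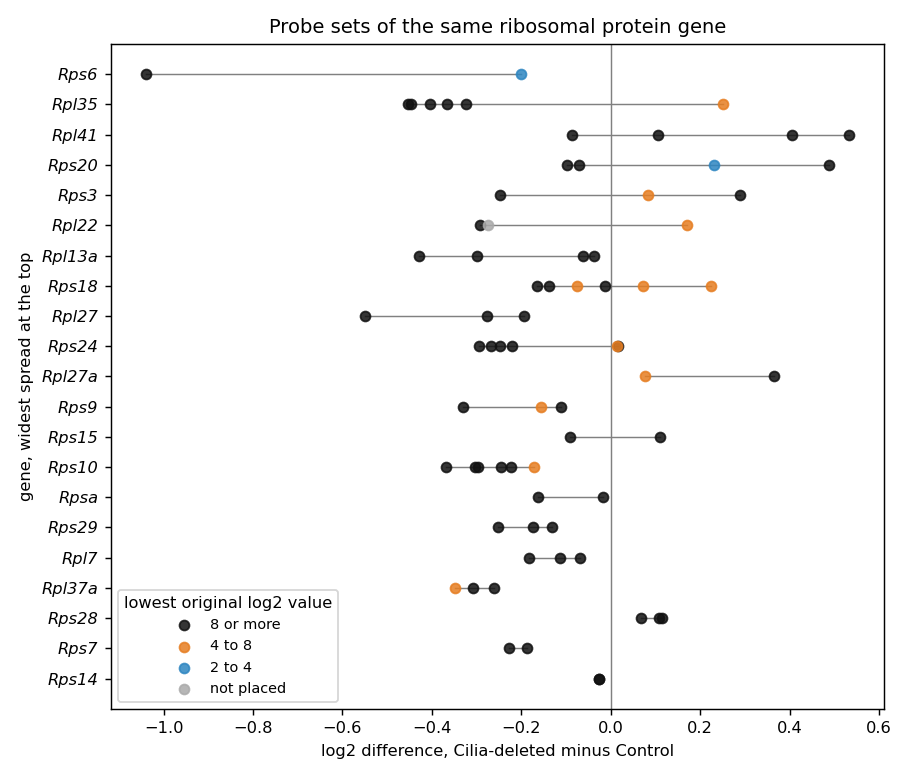
Log2 difference (Cilia-deleted minus Control) of each probe set of the 21 ribosomal protein genes with several probe sets, with 1 row per gene from the widest to the narrowest spread. Colours give the class of the lowest original log2 value, and grey lines join the probe sets of a gene, which lie on both sides of 0 for 8 of the 21 genes.

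In the lists of other genes of protein synthesis and of energy supply 0 genes passed (0.011% of all genes did). Control 1 had the highest median in most of these lists. Both genes that passed over all genes, Xist and Eif2s3y, were among the sex markers. Eif2s3y, a Y-linked gene of a translation initiation factor subunit, is in none of these lists. Its difference was 3.34 (limma adjusted p = 0.00876). The 76 mitochondrial ribosomal protein genes, which build the separate ribosome of the mitochondrion, had a median difference of -0.18 with 64 below 0 (84.2%, against 51.8% of all genes). Their array medians were -0.02 and -0.06 in Cilia-deleted arrays, against 0.23 in Control 1 and 0.00 in Control 2, and the lowest value was that of Mrps28 (-0.77, limma adjusted p = 0.633). The 70 respiratory chain subunits had the lowest median among the lists of protein synthesis and energy supply (-0.30). Of these, 67 lay below 0 (95.7%, against 51.8% of all genes). Their array medians were -0.08 and -0.15 in Cilia-deleted arrays, against 0.35 and 0.05 in Control arrays. Atp5e, a subunit of ATP synthase, was at -0.37 and -0.34 in Cilia-deleted arrays, against 0.79 and 0.34 in Control arrays (difference -0.92, SE 0.179, limma adjusted p = 0.417). Without Control 1 the median was -0.07 for the mitochondrial ribosomal protein genes and -0.15 for the respiratory chain. Both lists lay farther below 0 than the cytosolic ribosomal protein genes, and the difference between the lists was not tested.

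The list of translation factors with TOP mRNAs, which holds elongation factors but also other proteins such as Npm1 and Hnrnpa1, had 18 measured genes. Their median difference was -0.13 with 15 below 0 (83.3%, against 51.8% of all genes). Without Control 1 it was -0.05 with 11 below 0 (55.8% of all genes were). Their array medians were 0.00 and -0.12 in Cilia-deleted arrays, against 0.15 and 0.01 in Control arrays, and the nascent-chain factor Naca was lowest (-0.50, and -0.30 without Control 1). Here Cilia-deleted 1 was above Cilia-deleted 2 in 14 of 18 genes, whereas among ribosomal protein genes it was in 15 of 40. The 30 other translation factors had a median of -0.01 with 16 below 0 (53.3%, near the 51.8% of all genes), and 0 passed.

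The 63 genes of RNA polymerase I and ribosome assembly had a median difference of -0.03, with 33 below 0 (52.4%, near the 51.8% of all genes) and 30 above. Without Control 1 it was 0.05 with 25 below 0 (55.8% of all genes were). Their array medians were 0.05 and -0.08 in Cilia-deleted arrays, against 0.11 and -0.06 in Control arrays, so each genotype held a high and a low array. Mphosph10, a factor of early rRNA processing, was at 0.25 and 0.57 in Cilia-deleted arrays, against -0.48 and -0.13 in Control arrays (difference 0.72, SE 0.184, limma adjusted p = 0.635). Rrn3, an initiation factor of RNA polymerase I, had a difference of 0.50, and the assembly factor Utp3 one of -0.59 (-0.36 without Control 1).

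Of the 25 genes of mTOR and S6 kinase signalling 16 lay below 0 (64%, against 51.8% of all genes), with a median of -0.04. The stress-induced mTOR inhibitor Ddit4 was lowest: it was at -0.13 and -0.19 in Cilia-deleted arrays, against 0.44 and 0.13 in Control arrays (difference -0.44, and -0.29 without Control 1). Of the 13 Myc and p53 genes 7 lay below 0 (53.8%, near the share of all genes), with a median of -0.04. Cdkn1a, the p53-induced cell cycle inhibitor, was at -0.61 (-0.32 without Cilia-deleted 2). Of the paralogs and fusion genes 7 were measured, with Rpl39l, expressed mainly in testis, at 0.56 (0.33 without Control 2) and Rps27l, a p53 target, at -0.34 (-0.12 without Control 1).

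**Figure D4:**
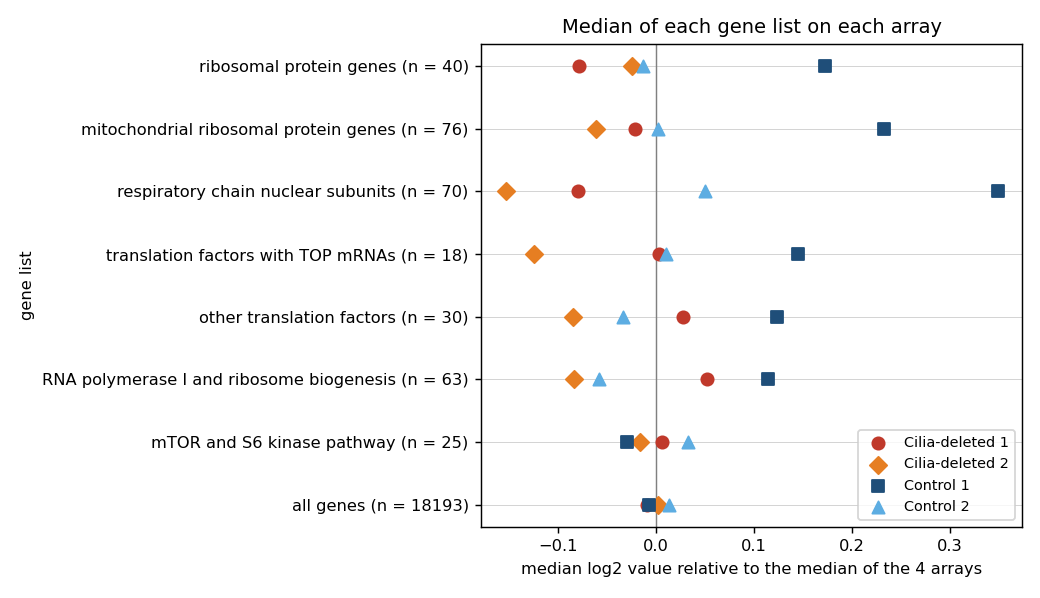
Median log2 value of each gene list on each array (log2, each probe set's median over the arrays subtracted), with the number of measured genes beside each list and all genes in the last row. Control 1 (squares) stands highest for 6 of the 7 lists (mTOR and S6 kinase is the exception), at 0.17 for the ribosomal protein genes and 0.35 for the respiratory chain, and Control 2 (triangles) lies near the Cilia-deleted arrays.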

How the data were processed

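The deposited values are log2 signals. RMA, which corrects background, normalizes the arrays and summarises probes, is named without a version in the submitters' processing notes. The subtraction of each probe set's median over the 4 arrays, and the log base, were read from the values, as were the brightness classes, with a tolerance of 6e-08 for a number step. Each of the 64 control probe sets was left out. A gene was the mean of the probe sets naming it alone, under its symbol in the RefSeq table of GRCm38.p6. Groups were compared with limma 3.58.1 (R 4.3.3; lmFit, eBayes without trend), Cilia-deleted minus Control, with Benjamini-Hochberg adjustment over all 18193 genes or 45037 probe sets, a threshold of 0.05 and unadjusted p values beside it. The number of arrays limits the precision: 2 residual and 3.83 prior degrees of freedom. With 2 arrays per group an exact permutation p cannot be under 0.333. Tested on simulated data for this comparison (18193 genes, 20 draws, 200 changed genes), 0.2% of 1.41-fold, 20.1% of 2-fold and 92.3% of 4-fold changes were recovered, with 5.3 false calls per draw.

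Members, lists, promoter motifs and tests were chosen with earlier results of these data known. The genes named were those past the threshold, the 10 highest and 10 lowest, 18 members with known roles (Rpl24, Rps27a, Rpl3, Rpl5 and Rplp1 had no value), the 6 with the widest probe set spread, 5 per direction within each genotype, and at most 3 per other list. A gene named within a range or outside this rule was chosen after its values were seen.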

Additional observations from a re-analysis of the deposited data

How the results depend on the processing

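Under each of the 13 other settings 0 ribosomal protein genes passed the threshold, and under each of the 12 that apply to probe sets 0 probe sets did, with 3 to 12 genes or 2 to 25 probe sets at an unadjusted p under 0.05. With the replicate block 0 genes passed (4 at an unadjusted p under 0.05) and 0 probe sets. Same-numbered arrays deviated together with a correlation of 0.139, but with 2 arrays per group the samples share only a number. The median difference of -0.106 lay between -0.252 (without Control replicate 2) and -0.024 (without Control replicate 1) as each array was left out, and was -0.104 after renewed quantile normalization, -0.105 after subtraction of array medians, -0.115 by the median over a gene's probe sets, -0.101 without _x_at and _s_at probe sets and -0.167 with the brightest class. The median of Control 1 minus Control 2 ran from 0.121 (renewed quantile normalization) to 0.213, and that of Cilia-deleted 1 minus Cilia-deleted 2 from -0.076 to -0.030. Over all genes the calls numbered 14 after renewed quantile normalization, 11 at an adjusted p under 0.1, 6 in the brightest class, 2 without Control 1 and 2 without Control 2, 56 without Cilia-deleted 1, 38 without Cilia-deleted 2, 1 with the block or without moderation, and 0 without X and Y. Over all probe sets, against 20, they numbered 27 at an adjusted p under 0.1, 14 after subtraction of array medians, 9 to 12 as each array was left out, 5 in the brightest class, with the block or without X and Y, and 2 without moderation. A genotype left with 1 array was assumed to vary like the other.

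Of 512 recomputed differences of single members 25 had another sign, in 14 of the 40 genes, none past the threshold (lowest adjusted p 0.202). Renewed quantile normalization gave 0.011 for Rpl14 and 0.006 for Rps18, the median over probe sets -0.098 for Rps3, and the fit without _x_at and _s_at probe sets 0.094 for Rps18 and 0.015 for Rps24. Leaving out each array gave ranges with both signs for Rpl14 (-0.334 to 0.268), Rpl22 (-0.371 to 0.106), Rpl38 (-0.215 to 0.051), Rpl7a (-0.267 to 0.087), Rps14 (-0.253 to 0.199), Rps16 (-0.173 to 0.038), Rps18 (-0.131 to 0.099), Rps19 (-0.357 to 0.024), Rplp2 (-0.051 to 0.185), Rps15 (-0.140 to 0.159), Rps27 (-0.244 to 0.135), Rps2 (-0.119 to 0.050), Rps3 (-0.003 to 0.085) and Ift88 (-0.064 to 0.224), and a range ending at 0 for Rraga (-0.804 to 0.000). The cause was not tested.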
